A study of Homo sapiens with 4 samples.

Results

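Small nucleolar ribonucleoproteins (snoRNPs) are RNA–protein particles in which a short guide RNA pairs with ribosomal RNA and directs the chemical modification of a chosen nucleotide. The genes described here encode shared proteins of both classes of these particles and their nucleolar partners. Transcripts of these genes were measured in the RCM‐1 line, human colorectal cancer cells, after exposure to methylthioacetic acid (MTA) and further culture without it. They were 10 genes, chosen by name: FBL, NOP56 and NOP58 of the box C/D particles, DKC1, NHP2, NOP10, GAR1 and NAF1 of the box H/ACA particles, and the partners NOLC1 and NCL. All 10 were among the 10669 expressed genes of the series. RCM‐1 is a single cell line from a well‐differentiated rectal carcinoma. In this line MTA induces domes, raised fluid‐filled blisters of the cell sheet that are taken as a mark of differentiation, and the arrays were made to follow gene expression ahead of them. Cells received 1 mM MTA for 6, 12 or 18 h, after which they stayed in MTA‐free medium for 18, 12 or 6 h, to a harvest at 24 h. The cells labelled 0 h were the control, for which the labels' protocol gives the same culture of up to 24 h. The times are lengths of exposure, not times of harvest. Each time had 1 array and no replicate. No test could therefore be made, and each difference compares arrays, not conditions.

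In box C/D particles, fibrillarin (FBL) transfers a methyl group to the ribose of the target nucleotide, and NOP56 and NOP58 are a related pair of scaffold proteins that hold the guide RNA. In box H/ACA particles, dyskerin (DKC1) converts uridine to pseudouridine and works with NHP2, NOP10 and GAR1. NAF1 occupies the place of GAR1 while the particle is being assembled and is absent from the mature one. Box H/ACA proteins also bind the RNA of telomerase. NOLC1 binds both classes of particle and moves between the nucleolus and Cajal bodies, and nucleolin (NCL) is an abundant nucleolar protein that acts in the synthesis and processing of ribosomal RNA. These proteins are made in quantity by growing cells, and several of their genes carry small nucleolar RNAs in their introns.

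The hexamer CACGTG, the sequence that MYC and related transcription factors bind, was searched in the promoters of these genes. The stretches that hold it are shown as a description only. RefSeq promoters (GRCh38.p14) matched 7 of the 10 genes, not NOP58, NAF1 or NOLC1. Each stretch is 30 bases long, read 5′ to 3′ on the strand of the gene, with the hexamer in capitals. That of FBL, at chr19:39846356-39846385 on the minus strand, has its first capital at base 7 of the transcript. Those of NOP10, at chr15:34343289-34343318 and chr15:34343130-34343159 on the minus strand, lie before the start, with the first capital at −170 and −11. That of GAR1, at chr4:109815781-109815810 on the plus strand, begins its hexamer at base 32 after the later of 2 annotated starts.
FBL: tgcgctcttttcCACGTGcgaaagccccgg
NOP10, distal: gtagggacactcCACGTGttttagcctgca
NOP10, proximal: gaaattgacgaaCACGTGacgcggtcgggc
GAR1: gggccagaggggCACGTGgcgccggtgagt

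NOP10 was thus the only one of 7 genes with CACGTG in the 250 bases before a start, where 6.34% of 35116 promoters held it. With 50 bases after the start included, which the plan did not name, 3 of 7 genes and 7.26% of all promoters held it. GAR1 is counted through its later start, and the window of its earlier start did not have the hexamer. The count is of genes but the share is of single promoters, and the difference between them was not tested. The hexamer reads the same on both strands. It was found in FBL and GAR1, among the members with a log2 ratio below −1 at 18 h, and in NOP10, which had one of the smaller differences. NOP56, DKC1 and NCL, which were also below −1, did not have these letters in the windows searched. No site of binding can be read from this.

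The deposited values are MAS5 signals, which are intensities on a linear scale with 1 value for each probe set, a group of short probes for one transcript. Each gene is given by its brightest probe set. A log2 ratio compares an array with the 0 h array, so that −1 means 0.5 of its signal. The median log2 ratio of all expressed genes moved with time, from 0.11 after 6 h to −0.28 after 12 h and −0.47 after 18 h, and the members are read against it. The SD of the difference in log2 ratio between 2 probe sets of the same gene, the only error available, came to 0.41, 0.42 and 0.48 at the 3 times over 4713 genes. Where both had a mean signal of at least 500 it was 0.21, 0.22 and 0.25 over 778 genes. It holds no variation between cultures. Epithelial identity was checked: 9 of 10 colorectal epithelial markers, EPCAM, KRT20 and CDH17 among them, had signals from 1034 to 13733 at 0 h, and CDX2 had 55.94. Among stromal, endothelial and immune markers, LYZ was at 2721, PECAM1 and CD68 were at 41.09 and 28.32, and 6 more were not expressed. Whether a smaller share of cells with the transcript or less of it in each cell lies behind a lower signal cannot be told apart in bulk RNA.

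At 18 h of MTA the snoRNP genes stood below most expressed genes. Their median log2 ratio was −1.17, a shift of −0.70 from the median of all genes, after −0.05 at 6 h and −0.79 at 12 h. NOP56 had the lowest ratio at 18 h, −1.33, and NOP58, its paralogue in the same particle, the highest, −0.53. FBL, NOP56, DKC1, GAR1, NOLC1 and NCL were below −1, which is 6 of 10 members, beside 15.8% of all expressed genes. Over the genes of the 10000 brightest probe sets that share was 17.6% and the median log2 ratio −0.56. Below −1.5 there was no member, beside 3.19% of genes. Above 1 there was no member at 6, 12 or 18 h, beside 4.63%, 3.25% and 3.11% of genes. A ratio below 0 was found in 8 members at 6 h, beside 37.8% of genes, in all 10 at 12 h, beside 71.8%, and in all 10 at 18 h, beside 78.4%. These counts depended on how the arrays were scaled. With the ratios centred on their median no member was below −1, beside 3.74% of genes, and the genes beyond 1 in either direction were then 399 lower and 774 higher, in place of 1686 lower and 332 higher. The shift of −0.70 stayed as it was under every division of an array by 1 number and was −0.60 with quantile normalization.

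**Figure D1:**
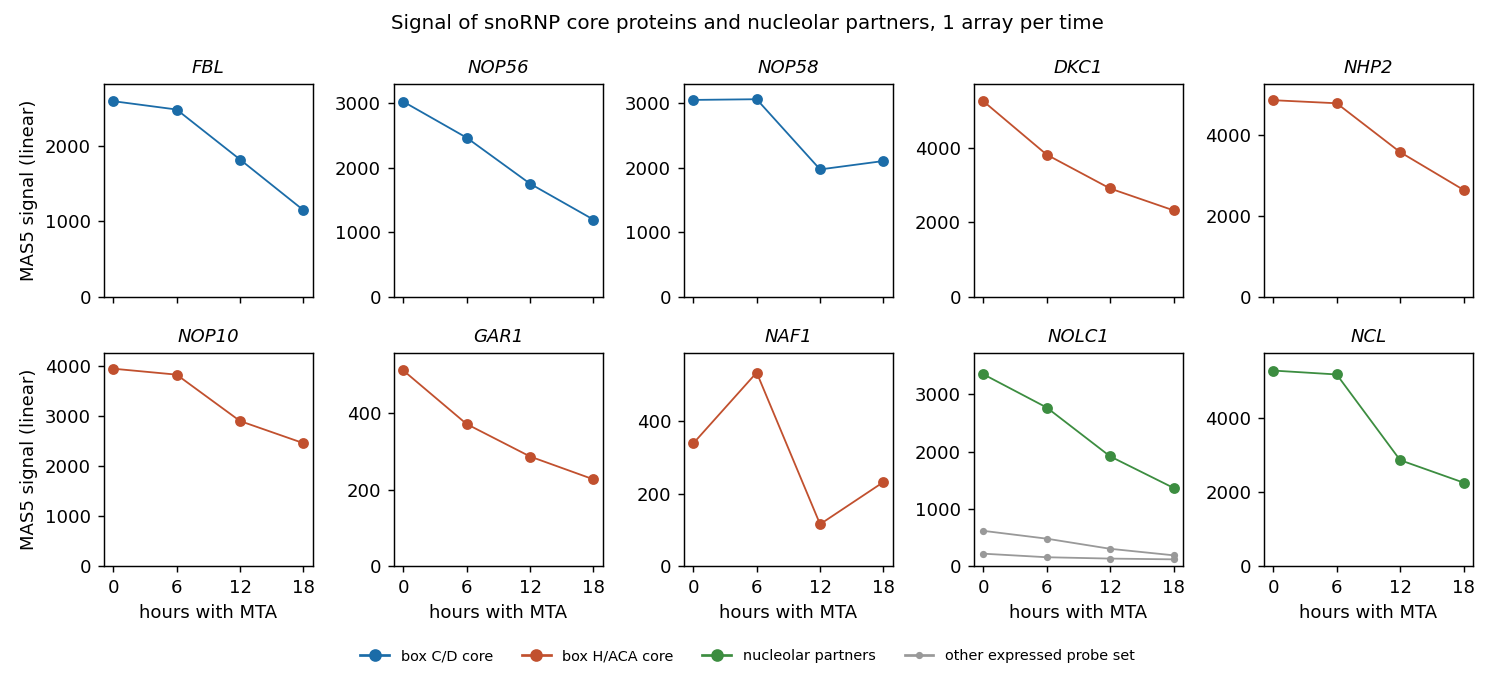
MAS5 signal (linear axis from 0) of the 10 genes on the 4 arrays, by hours with MTA; coloured points are the brightest probe set of each gene and grey points its other expressed probe sets. In 8 panels the signal is lower at every step with the deposited scaling, while NOP58 and NAF1 have a higher signal at 18 h than at 12 h.

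Among the box C/D proteins, the methyltransferase FBL had signals of 2585, 2475, 1816 and 1148 at 0, 6, 12 and 18 h. Its 6 h array was close to 0 h, and the larger differences were on the 12 and 18 h arrays. The log2 ratios of FBL were −0.06, −0.51 and −1.17 at 6, 12 and 18 h, and 9.74% of expressed genes had a lower ratio at 18 h.

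NOP56, a scaffold of the particle whose probe set also lists small RNAs of the introns, had signals of 3018, 2461, 1751 and 1197 at 0, 6, 12 and 18 h. Each array was below that of the next shorter exposure, and the 6 h array was below 0 h. Its log2 ratios were −0.29, −0.79 and −1.33 at 6, 12 and 18 h, and the signal at 18 h was 39.7% of that at 0 h.

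NOP58, the other scaffold, had signals of 3046, 3056, 1973 and 2103 at 0, 6, 12 and 18 h. The 0 and 6 h arrays were alike, and the 18 h array was slightly above the 12 h array. Its log2 ratios were 0.01, −0.63 and −0.53, the last of them just below the median of all genes, with 45.1% of genes lower. With quantile normalization the ratio of NOP58 at 18 h was 0.05, so that its sign is not settled. The 2 scaffolds of one particle thus stood apart at 18 h. NOP56 was below NOP58 by a log2 difference of −0.80 at 18 h, beside an SD of 0.48 between probe sets of a gene, after −0.30 at 6 h and −0.16 at 12 h. NOP56 was below FBL by −0.23, −0.28 and −0.16 at 6, 12 and 18 h, less than the SD between all pairs of probe sets at each time, but at 6 and 12 h more than the 0.21 and 0.22 of bright ones. Each of these genes was read by 1 probe set, and a test of their difference was not possible.

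Among the box H/ACA proteins, the pseudouridine synthase DKC1, again with intronic small RNAs on its probe set, had signals of 5243, 3813, 2908 and 2323 at 0, 6, 12 and 18 h. The step to 6 h was its largest with the deposited scaling. That was not so with scaling to the hybridization controls, where its ratios were −0.48, −0.58 and −1.12. Its log2 ratios were −0.46, −0.85 and −1.17 at 6, 12 and 18 h. At 6 h only 6.58% of expressed genes had a lower ratio.

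GAR1, which binds the catalytic subunit in the mature particle, had a nearly identical course. Its signals were 509.9, 370.4, 286 and 226.5 at 0, 6, 12 and 18 h. The log2 ratios of GAR1 were −0.46, −0.83 and −1.17, within 0.02 of those of DKC1 at each time.

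NHP2, which helps to hold the guide RNA, had signals of 4852, 4777, 3574 and 2644 at 0, 6, 12 and 18 h. NOP10, the smallest protein of the particle, had 3955, 3836, 2908 and 2466. Both were close to 0 h at 6 h and below it at 12 and 18 h. The log2 ratios at 18 h were −0.88 for NHP2 and −0.68 for NOP10, so that neither was halved. At 12 h they were alike, both −0.44. DKC1 was below NOP10 by −0.42, −0.41 and −0.49 at 6, 12 and 18 h, and below NHP2 by −0.44, −0.41 and −0.30, differences near or under the SD between all pairs of probe sets and above the SD between bright ones.

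NAF1, the assembly factor, did not follow the other members. Its signals were 339.4, 534.9, 116.5 and 232.9 at 0, 6, 12 and 18 h. The 6 h array was the highest of the 4 and the 12 h array the lowest. The log2 ratios of NAF1 were 0.66, −1.54 and −0.54, and at 12 h it was the 1 member below −1, beside 6.24% of genes, and also the 1 below −1.5, beside 0.928%. At 6 h no member was below −1, beside 0.478% of genes, or below −1.5, beside 0.0187%. NAF1 had 1 probe set, whose name ends in _x_at, the maker's mark for probes that may match other transcripts. The log2 difference of −2.20 between 12 and 6 h rests on this probe set alone, and no error was computed for differences between these times. What share of its signal comes from other transcripts was not tested.

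The 2 classes of particle overlapped in their ratios at 18 h, over the genes chosen here, which leave out SNU13 of box C/D. The median was −1.17 over the 3 box C/D genes and −0.88 over the 5 box H/ACA genes, a difference of −0.30. Without NAF1 the difference was −0.15. The spread inside each class was wider than the gap between them, from −1.33 to −0.53 in box C/D and from −1.17 to −0.54 in box H/ACA.

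**Figure D2:**
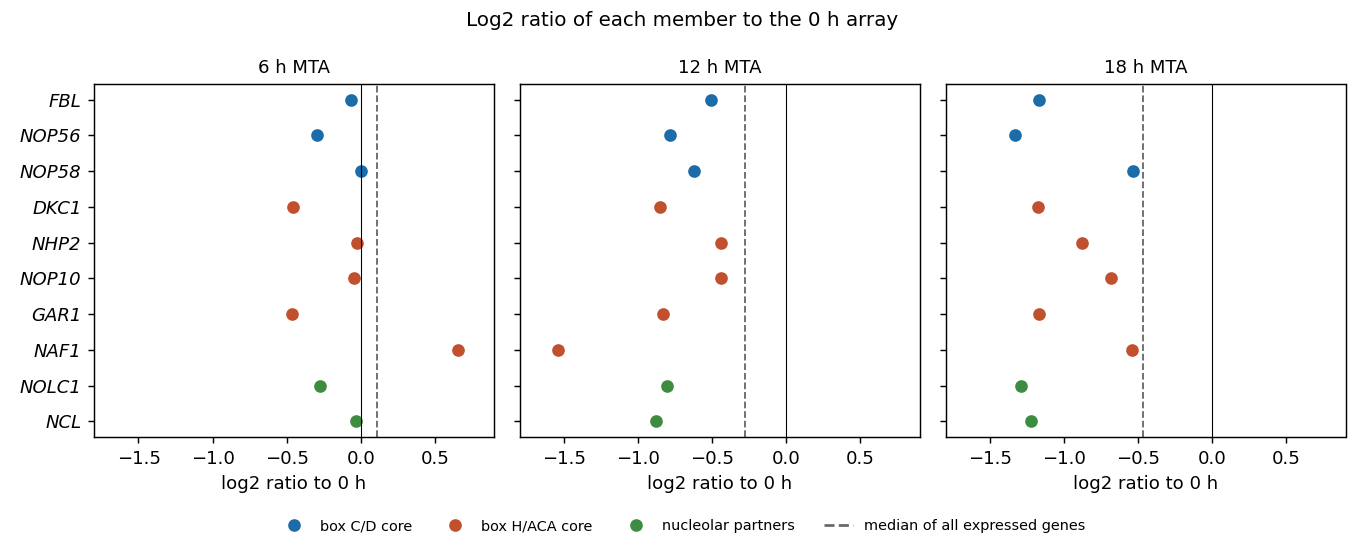
Log2 ratio of each gene to the 0 h array after 6, 12 and 18 h of MTA, with points coloured by class of particle, a solid line at 0 and dashes at the all‐gene median (0.11, −0.28 and −0.47). Apart from NAF1 at 6 h, every point lies left of the dashes, NOP58 and NAF1 only just so at 18 h.

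NOLC1, the partner that links nucleolus and Cajal body, was measured by 3 probe sets. The brightest had signals of 3352, 2772, 1920 and 1370 at 0, 6, 12 and 18 h. The others had 621.1, 484.4, 307.8 and 194.3, and 222.5, 160.5, 136.9 and 123.8. On all 3 the signal was lower at each successive time. The log2 ratio of NOLC1 at 18 h was −1.29 on the brightest, −1.68 on the next and −0.85 on the dimmest, so the order of the times was shared by the probe sets but the size was not.

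NCL had signals of 5282, 5177, 2867 and 2261 at 0, 6, 12 and 18 h. The 0 and 6 h arrays were alike. Between the 12 and 6 h arrays NCL had the lowest log2 difference of all members other than NAF1, −0.85. Its ratios were −0.03, −0.88 and −1.22. A second probe set of NCL read between 5.413 and 17.38 on the 4 arrays, under the lowest mean signal of an expressed probe set, 33.97. Its log2 ratio at 18 h was 1.31, which rests on these dim readings.

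Most members lay in one of 2 ranges at 6 h. DKC1, GAR1, NOP56 and NOLC1 had log2 ratios from −0.46 to −0.27 at that time. FBL, NOP58, NHP2, NOP10 and NCL had ratios from −0.06 to 0.01, and NAF1 stood above both sets. A ratio below −0.20, a limit set after the values had been seen, was found in 4 of 10 members and in 19.3% of all expressed genes. The gap between the 2 sets, −0.27 to −0.06, is narrower than the SD of 0.41 between all pairs of probe sets at 6 h and close to the 0.21 of bright ones. Dividing an array by 1 number cannot alter it, and the sign of NOP58 at 6 h turned with the scaling. From 6 to 12 h the difference was similar for most members: apart from NAF1 it ran from −0.85 to −0.37, beside −0.39 for the median gene. DKC1 and GAR1, of the lower set at 6 h, were at the median gene in this difference, with −0.39 and −0.37. From 12 to 18 h FBL and NOP56 had the lowest differences, −0.66 and −0.55, beside −0.20 for the median gene, while NOP58 had 0.09 and NAF1 had 1.00.

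**Figure D3:**
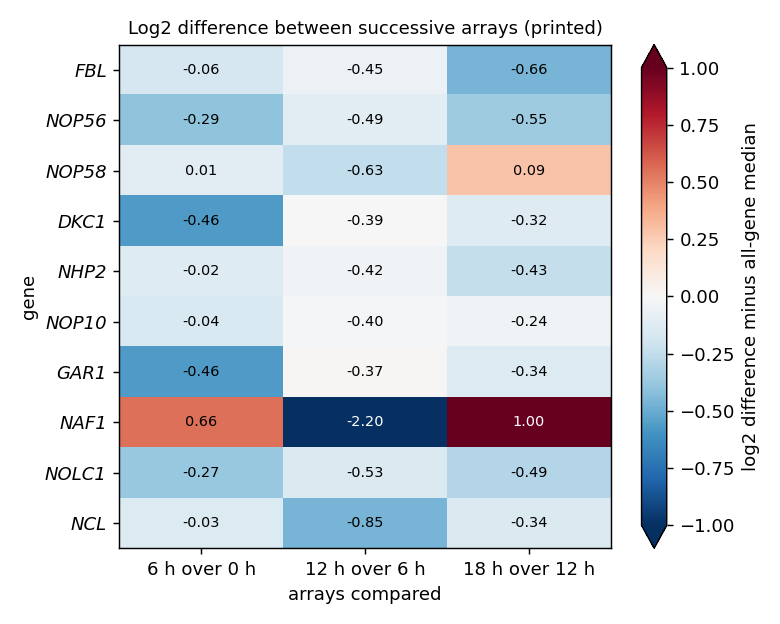
Log2 difference between each array and the one before it, printed for each gene; colour gives the difference minus that of the median expressed gene, blue for below it and red for above it. Leaving NAF1 aside, DKC1 and GAR1 are darkest in the first step, NCL in the second and FBL in the last, while NAF1 goes past the colour scale at the 2 later steps.

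Of the 10 members, 9 lay below the median gene at all 3 times, a pattern that 34.7% of expressed genes had. NAF1 was the exception, through its 6 h array. With quantile normalization NOP58 was an exception too. A signal that was lower at every step was found in 8 of 10 members and in 27.7% of expressed genes with the deposited scaling. That count went from 5 members, with each array divided by its trimmed mean, beside 11.6% of genes, to 9 members, with scaling to the hybridization controls, beside 23.4%. FBL, NOP56, NHP2, NOLC1 and NCL were lower at every step in each of the 7 settings. Every ratio to 0 h shares the same control array, so the 3 times are not separate observations. Longer exposure also goes with a shorter time since MTA was removed, and these cannot be told apart.

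**Figure D4:**
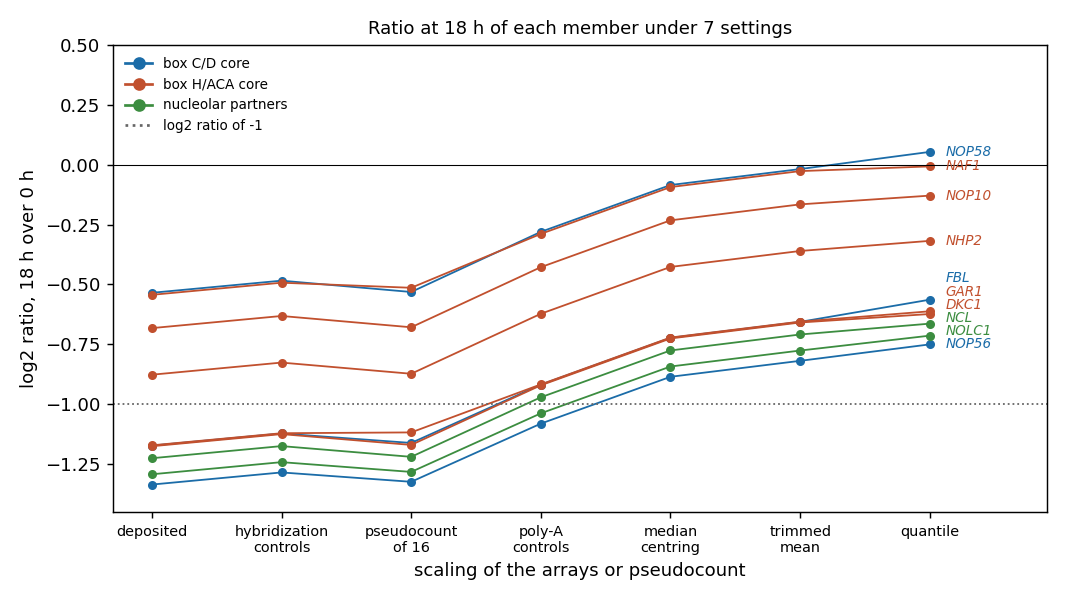
Log2 ratio of 18 h to 0 h for each gene under the deposited scaling, 5 other scalings and a pseudocount of 16, with a dotted line at −1. With scaling to the poly‐A controls NOP56 and NOLC1 alone lie below −1, with median centring, quantile normalization and the trimmed mean no gene does, and NOP58 crosses 0 with quantile normalization.

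Factors that assemble snoRNPs, listed with SNU13, were set beside the particle proteins. Of these 12 genes, all expressed, 5 had a log2 ratio below −1 at 18 h, beside 15.8% of all genes. None was above 1, beside 3.11%, and their median was −0.98 beside −0.47 for all genes. NUFIP1, a scaffold of box C/D assembly, had −1.37 (signal 310.9 at 18 h, 803.3 at 0 h). SNU13, the box C/D protein that first recognises the guide RNA, had −1.31 (112.8 at 18 h, 279.5 at 0 h). It is itself a core protein of the particle, though not among the members chosen here. PIH1D1, of the R2TP chaperone complex, had the highest ratio of the list: it read 492.8 on both the 18 h and the 0 h array, and its ratio was above 0 under 5 of the 7 settings. With median centring no gene of the list was below −1, beside 3.74% of all genes.

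U3 is a box C/D particle needed for the cutting of the ribosomal RNA precursor, not for its modification. The proteins particular to it had 4 of 4 genes below −1 at 18 h, beside 15.8% of all genes. None was above 1, beside 3.11%, and their median was −1.17. RRP9, which recognises the U3 RNA, had −1.72 (57.13 at 18 h, 187.6 at 0 h). IMP4 had −1.21 and MPHOSPH10, its partner, −1.02. With median centring 1 of the 4 was below −1, beside 3.74% of all genes.

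Enzymes that modify ribosomal RNA but are not core snoRNP proteins, listed with a cofactor, TRMT112, had a median of −1.30 over 10 expressed genes. Of these genes 6 were below −1, beside 15.8% of all genes, and none was above 1, beside 3.11%. EMG1 and DIMT1, methyltransferases of the small subunit RNA, had −1.96 and −1.88. ZCCHC4, a methyltransferase of the large subunit RNA, had the highest ratio of the list, −0.17 (46.47 at 18 h, 52.12 at 0 h), and its sign turned under 4 of the 7 settings. FBL and DKC1, the enzymes of the snoRNP core, had −1.17 each and so lay between these values. With median centring 3 of the 10 genes were below −1, beside 3.74% of all genes.

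Other nucleolar proteins had a median of −0.87 over 7 expressed genes of 8, with 3 below −1, beside 15.8% of all genes, and none above 1, beside 3.11%. GNL3 had no probe set that could be named. NOP2, a methyltransferase of the large subunit RNA, had −1.42, and the RNA helicase DDX21 had −1.24 (2118 at 18 h, 5007 at 0 h). NPM1, an abundant chaperone of the nucleolus, had the highest ratio, −0.33, which was above 0 under 3 of the 7 settings. Median centring left no gene of the list below −1, beside 3.74% of all genes.

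Cajal body and telomerase partners of the box H/ACA proteins had no gene below −1 or above 1 among 3 expressed of 4, beside 15.8% and 3.11% of all genes, and a median of −0.74. PARN, which trims the telomerase RNA, had −0.87, WRAP53, which carries it to Cajal bodies, −0.74, and COIL, the scaffold of the Cajal body, −0.63. TERT, the catalytic subunit of telomerase, was not expressed by the rule used, with signals between 1.591 and 15.54 on the 4 arrays. For comparison, 8 housekeeping genes had a median of −0.26, none of them below −1, beside the same 15.8%. HPRT1 had −0.68, TBP −0.56, ACTB −0.55, GAPDH −0.20 and GUSB −0.10, and the signs of GAPDH and GUSB turned under 4 of the 7 settings.

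Genes of other kinds followed a like course. The 4 other genes whose ratios at 6, 12 and 18 h lay nearest to the median course of the members were CMPK1, a kinase of UMP and CMP, CREBZF, a transcription factor, ARHGAP21, a GTPase‐activating protein, and PSMA3, a proteasome subunit. Their distances were 0.05, 0.05, 0.05 and 0.06 on the log2 scale, over 3 times from 4 arrays. Within a distance of 0.2 there were 205 genes, which is 1.92% of those expressed.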

How the data were processed

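RNA of RCM‐1 cells at 0, 6, 12 and 18 h of MTA was hybridised to 4 Affymetrix arrays, 1 for each time. The authors deposited MAS5 signal intensities from Affymetrix Expression Console, as the submitters' processing notes name the tool; its version and target value: not given in the sources used here. The array work was delegated to the manufacturer.

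The 62 control probe sets were dropped. The filter on low signal kept the number of probe sets that the study counts as detected, taken by mean log2 signal over the 4 arrays, without regard to time. Of 54613 probe sets, 41091 had 1 gene symbol, 1801 several and 11721 none in the platform annotation of GEO, and symbols were updated by the RefSeq table of GRCh38.p14. A probe set with several symbols was named only where its accession is a RefSeq transcript of 1 of them (388). This added to the planned rule and names NOP56 and DKC1, whose probe sets also list small RNA genes of their introns. Of 16 probe sets that list a member, 13 were named, 12 of them expressed. From the other 3 no gene was named. One marker of the cell type lists is not reported here.

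Log2 ratios used the deposited scaling and no pseudocount. Named were all members, the 2 lowest and the highest gene of each list at 18 h, the 4 nearest courses by Euclidean distance, GAPDH and ACTB. Members, lists and alternatives were chosen with earlier results of these data known. The thresholds of −1 and 1 and the calculation were tested on simulated data, and the threshold of −1.5 was not. The changes simulated at 18 h were larger than the ratio of any member, so calls for ratios near −1 were not tested. Alternatives were other scalings (median, quantile, poly‐A and hybridization controls, 2% trimmed mean), a pseudocount of 16, other probe sets, filters and thresholds. Leaving out NAF1, leaving out probe sets with several symbols and averaging over all of them were added after the values had been seen. Python 3.11.15, NumPy 2.4.6, pandas 2.3.3 and matplotlib 3.10.9 were used.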

Additional observations from a re-analysis of the deposited data

How the results depend on the processing

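The median log2 ratio of the 10 members at 18 h, −1.17, stayed below 0 in all 13 alternatives. It was −0.59 with quantile normalization, −0.66 with each array divided by its trimmed mean and −0.72 with median centring, and between −1.17 and −0.92 in the others. The 6 members below −1 at 18 h became 0 with median centring, 0 with quantile normalization, 0 with the trimmed mean and 2 with scaling to the poly‐A controls, and the count was 0 at a threshold of −1.5 and 10 at −0.5. Median centring, the trimmed mean and the poly‐A controls shift all genes of an array alike, which accounts for their counts. The cause with quantile normalization was not tested. The share of lower genes among all those beyond 1 in either direction was 83.5% with the deposited scaling, 34% with median centring, 37.9% with quantile normalization, 26.8% with the trimmed mean, 59.8% relative to the poly‐A controls, 57.1% without a filter and 94.4% among the 10000 brightest probe sets. NCL at 18 h was 1.31 on its second probe set, a dim one. Of 127 single‐gene values under the alternatives, 125 were below 0, with NCL on that probe set and NOP58 with quantile normalization as the exceptions. Many of these values could not differ from the main ones. Changing the filter left the value of every member as it was, and most members had a single named probe set. The count is therefore no measure of independent repeats. The 3 probe sets that list NOP56 or DKC1 beside small RNA genes and were not named had log2 ratios of −1.79, −1.27 and −1.29 at 18 h. The ratio of the 3′ to the 5′ control probe set of a gene moves with RNA integrity. For ACTB it read 5.763, 4.758, 5.863 and 6.448 on the arrays from 0 to 18 h. For GAPDH it read 1.635, 1.44, 1.529 and 1.63, nearly the same at 0 and 18 h. The part of RNA integrity in the log2 ratios was not tested. No paired analysis was possible because each time has 1 array and the shared number in the labels marks no pair. With 1 array for each time, the precision of each value is limited by their number.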
